A study of Mus musculus with 8 samples.

Results

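Growth hormone acts on fat through a short chain of proteins, and 8 genes of that chain are described here in nuclei of mouse visceral white adipose tissue. They are the receptors Ghr and Prlr, the kinase Jak2, the transcription factors Stat5a and Stat5b, and the feedback inhibitors Cish, Socs2 and Socs3. All 8 were found by symbol among the 56749 features counted. The set was chosen by the measured Cish level of adipocyte nuclei, which had been seen to be low on the high-fat diet. The diet comparison in adipocyte nuclei therefore describes the reason for the choice and is given below without a test for any of the 8 genes.

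The tissue came from 8 mice in 4 groups of 2. The mCherry SD mice carried p21+/mCherry, an allele with the red fluorescent protein mCherry at the locus of p21, and ate a standard diet. The mCherry HFD mice had the same genotype and ate a high-fat diet. The Tert HFD mice (p21+/mCherry-Tert) and the TertCi HFD mice (p21+/mCherry-TertCi) also ate the high-fat diet. Tert encodes the catalytic subunit of telomerase, and the labels do not spell out how TertCi differs from it. Every group thus carried a modified p21 allele, and there was no unmodified mouse and no Tert or TertCi mouse on the standard diet. Another text of the study speaks of the stromal vascular fraction and of p21+/- mice, and the sample labels were followed here. Mice are named below by group and by the number in their label.

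Growth hormone binds its receptor, encoded by Ghr, and prolactin binds the related receptor encoded by Prlr. Both receptors hold the tyrosine kinase JAK2, which phosphorylates STAT5A and STAT5B, and these enter the nucleus and bind DNA at paired half-sites of the form TTCNNNGAA. Cish, Socs2 and Socs3 are target genes whose proteins damp the same receptors, so their RNA is often read as a sign of recent STAT signalling. In adipose tissue, growth hormone is known for promoting the breakdown of stored fat.

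The start of Cish is where this motif is densest among the genes with a promoter entry. In RefSeq promoter windows of 300 bases (250 before and 50 after an annotated start, GRCm38.p6), entries were found for 7 of the 8 genes, 12 windows in all, and 3 windows held TTCNNNGAA. The motif reads the same on both strands. The 3 stretches are shown because they place the STAT motif beside the inhibitors and the receptor whose RNA is described below, and capitals mark the motif.
Cish: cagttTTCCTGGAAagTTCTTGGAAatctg
Socs3: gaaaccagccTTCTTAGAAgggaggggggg
Prlr: gcaaaatgagTTCTAGGAAtaagggatatc
The Cish stretch lies at chr9:107296654-107296683 on the plus strand. Its first motif begins at the annotated start, and 2 bases separate it from the second. The Socs3 stretch lies at chr11:117969501-117969530 on the minus strand, with its motif beginning 154 bases upstream of the start. The Prlr stretch lies at chr15:10223786-10223815 on the plus strand, with its motif 110 bases upstream of 1 of 3 annotated starts. Of all 32851 windows, 8.30% held at least 1 such motif and 0.457% held 2 or more, as the Cish window did. A match is a description of letters and not a measured binding site.

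Library depth ran from 23378488 to 139749876 unique molecular identifiers (UMIs, each standing for 1 captured RNA molecule), and 30209 nuclei were kept. Their median depth per mouse ran from 1668.5 to 7094.5 UMIs. Nuclei fell into 31 clusters named from marker genes, and a class is called adipocyte-like, for example, when those markers led it. The classes held 4172 adipocyte-like, 4918 progenitor-like, 8878 macrophage-like, 910 endothelial-like, 661 mesothelial-like, 582 mural-like, 305 epithelial-like and 177 dendritic-like nuclei. A further 11 clusters with 9606 nuclei carried markers of more than 1 class and were left out; they took 52.2% and 69.1% of the nuclei of the mCherry SD mice and between 20.8% and 40.8% in the other mice. The mCherry HFD mice gave only 100 and 26 adipocyte-like nuclei, 1.35% and 0.903% of their nuclei, against 318 to 1500 in the other 6 mice. No 2 libraries shared more than 15 barcodes. Tert RNA over all barcodes was 2.01 to 2.76 CPM (UMIs of a gene scaled to a total of 1000000 UMIs) in the Tert and TertCi mice and 3.27 to 3.98 CPM in the mCherry mice, so this count did not check the genotype labels. The mCherry feature held 0 to 17 UMIs per library.

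Ghr RNA was concentrated in adipocyte-like nuclei. Levels here are CPM over the summed nuclei of a class in 1 mouse, and a class entered with at least 20 nuclei per mouse. Mean Ghr was 17576 CPM in adipocyte-like nuclei, 1581 in progenitor-like, 1436 in mesothelial-like, 926 in endothelial-like, 899 in mural-like, 601 in macrophage-like and 411 in dendritic-like nuclei. Epithelial-like nuclei, found in 2 mice, had 1709 CPM in the mCherry SD mouse and 78.2 CPM in the mCherry HFD mouse. Within a mouse, the adipocyte-like level was 7.56 to 17.2 times the progenitor-like level and higher in 8 of 8 mice. Below the adipocyte-like class, each class overlapped the next in its range over mice. Classes come from the same nuclei, so they were not tested against each other.

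Prlr followed another order. Its mean was 533 CPM in mesothelial-like nuclei, the cells that line the visceral cavity, where the 7 mice ran from 314 to 707 CPM. The adipocyte-like nuclei came next among the classes present in most mice, at 74.3 CPM with a highest mouse of 143 CPM, so the ranges did not overlap. In the epithelial-like nuclei, found in only 2 mice, Prlr was 1009 CPM in mCherry SD rep146 and 57.7 CPM in mCherry HFD rep128. All remaining classes had means between 5.12 and 17.3 CPM.

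**Figure D1:**
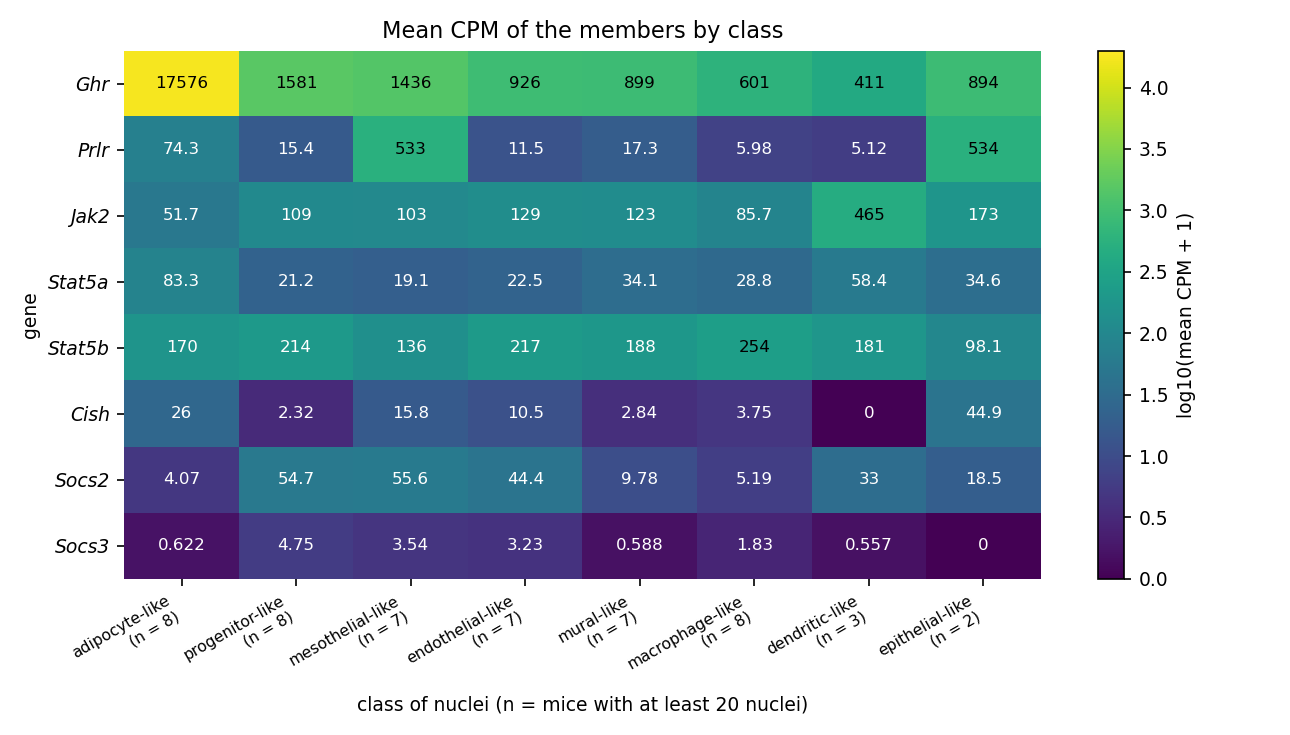
Mean CPM of each gene (rows) in each class of nuclei (columns), with the mean printed in the cell, the colour on a log10(mean CPM + 1) scale and n the number of mice with at least 20 nuclei; values are to be read along a row. Ghr peaks in adipocyte-like nuclei (17576 CPM), Prlr in mesothelial-like nuclei (533 CPM) among classes present in most mice, and Jak2 in dendritic-like nuclei (465 CPM). The epithelial-like Prlr mean (534 CPM) is that of 2 mice at 1009 and 57.7 CPM.

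Of the signalling parts downstream of the receptors, Stat5a was highest where Ghr was, and Jak2 and Stat5b were not. Jak2 was lowest in adipocyte-like nuclei, with a mean of 51.7 CPM and a range of 31.2 to 72.6 CPM, below every macrophage-like value (74.3 to 97.0 CPM), and highest in the dendritic-like nuclei of 3 mice (465 CPM). Stat5a was highest in adipocyte-like nuclei, at 83.3 CPM, and exceeded the progenitor-like and macrophage-like level in 8 of 8 mice. Stat5b had means from 98.1 to 254 CPM over the 8 classes, highest in macrophage-like nuclei. Stat5a and Stat5b are neighbouring genes with similar sequence, so the split of reads between them is uncertain.

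The inhibitors differed among themselves. Socs2 was low in adipocyte-like nuclei (4.07 CPM) and higher in mesothelial-like (55.6 CPM), progenitor-like (54.7 CPM) and endothelial-like nuclei (44.4 CPM), and the adipocyte-like level was below the progenitor-like level in 8 of 8 mice. Socs3 was sparse everywhere, with its highest mean, 4.75 CPM, in progenitor-like nuclei. Cish had no single order of classes, because in adipocyte-like nuclei it depended on the group.

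In adipocyte-like nuclei Cish was present on the standard diet and nearly absent in all 3 groups on the high-fat diet. The 2 mCherry SD mice had 92.7 CPM (170 UMIs) and 98.8 CPM (415 UMIs). The mCherry HFD mice had 2.87 CPM (4 UMIs, exact 95% Poisson interval 0.782 to 7.35 CPM) and 0 UMIs among 160340. For the mouse with 0 UMIs, a floor of 3 counts stands at 18.7 CPM, which is not the end of an exact interval. The Tert HFD mice had 1.14 and 6.60 CPM, and the TertCi HFD mice had 2.67 and 3.05 CPM. Both standard-diet mice thus stood above all 6 high-fat mice with no overlap. The mCherry SD mean was 95.8 ± 4.31 CPM (SD, n = 2), whereas mCherry HFD averaged 1.44 ± 2.03 CPM, Tert HFD 3.87 ± 3.86 CPM and TertCi HFD 2.86 ± 0.271 CPM. The fitted difference, mCherry HFD minus mCherry SD, was −5.48 on the log2 scale (SE 0.756), and it was −11.41 without mCherry HFD rep128, which leaves the mouse with 0 UMIs alone in its group.

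The Cish difference was also seen per nucleus at equal depth. With each nucleus thinned to 1000 UMIs, 8.49% and 10.4% of adipocyte-like nuclei of the mCherry SD mice carried a Cish UMI, and 0 to 0.385% in the 6 high-fat mice. Unthinned, the shares were 29.95% and 41.7% against 0 to 2%, at median depths of 3553 and 5476 UMIs against 1832 to 11784.5. In macrophage-like nuclei, a class in which Cish is low, the thinned share was 0 to 1.71% at median depths of 1368 to 6369 UMIs, with its highest value in mCherry SD rep146. Within the 6 high-fat mice, the macrophage-like share was 0 to 0.260%, and 2 adipocyte-like values lay above that range, 0.385% in Tert HFD rep136 and 0.333% in TertCi HFD rep138.

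The adipocyte-like class was made of 3 clusters that the groups filled unequally. The mCherry HFD mice had at least 20 nuclei only in cluster 2, so diet at the same genotype can be compared only there. Of the adipocyte-like nuclei, cluster 10 held 94.7% in mCherry SD, cluster 2 held 90.5% in mCherry HFD and 86.03% in TertCi HFD, and cluster 17 held 64.9% in Tert HFD. The 33 mCherry SD nuclei in cluster 2 had 109 CPM of Cish, against 2.73 CPM over 114 nuclei of mCherry HFD, 0.873 CPM over 328 of Tert HFD and 2.30 CPM over 1614 of TertCi HFD. In cluster 10, Cish was 96.6 CPM over 1012 nuclei of mCherry SD, against 5.53 CPM over 58 of Tert HFD (2 UMIs) and 3.49 CPM over 154 of TertCi HFD (3 UMIs). In cluster 17 the values were 89.5 CPM in 24 mCherry SD, 7.17 CPM in Tert HFD and 12.5 CPM in TertCi HFD nuclei. Pooled nuclei of a group carry no error over mice.

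**Figure D2:**
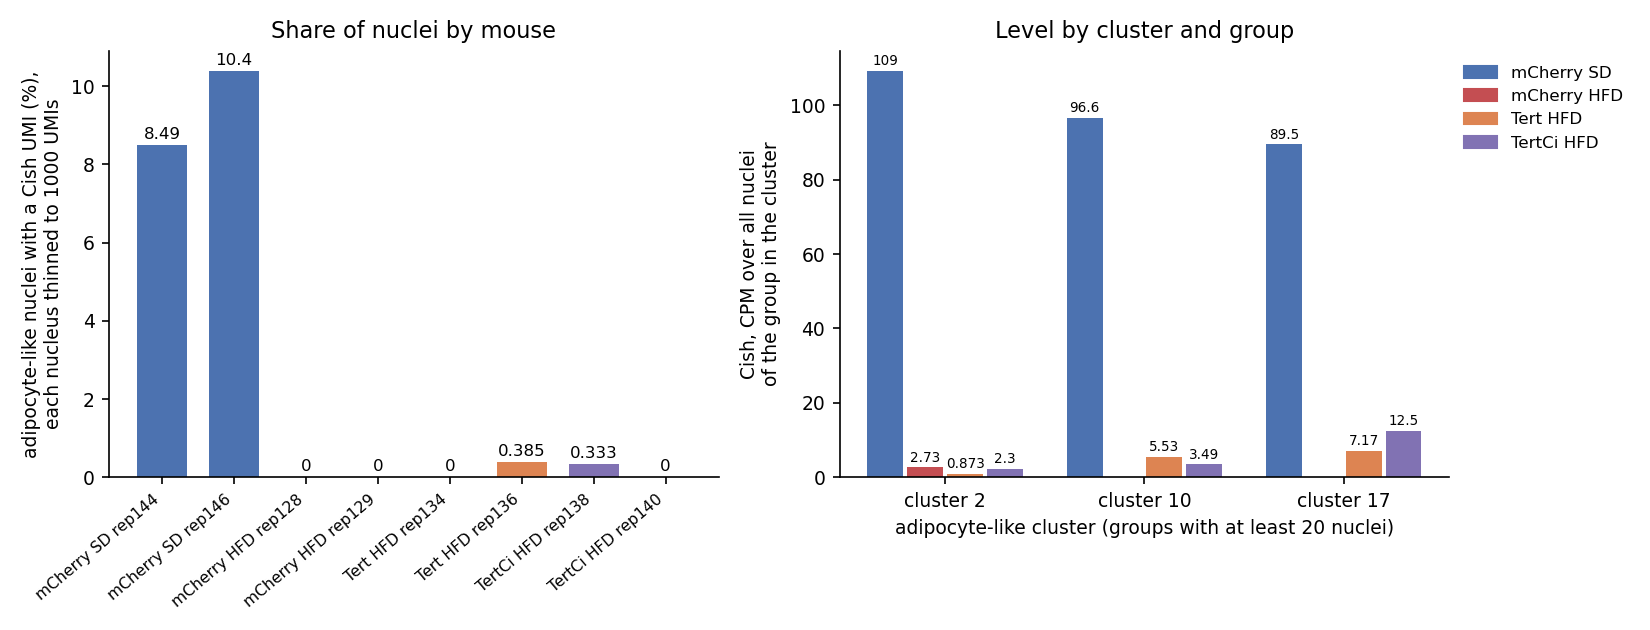
Left, the share of adipocyte-like nuclei with a Cish UMI after thinning each nucleus to 1000 UMIs, 1 bar per mouse; right, Cish CPM over all nuclei of a group in each adipocyte-like cluster, for groups with at least 20 nuclei there. The mCherry SD bars (8.49% and 10.4% on the left, 89.5 to 109 CPM on the right) exceed every high-fat bar (at most 0.385% and 12.5 CPM).

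The same difference appeared in droplets too small to be nuclei, which hold RNA set free from many cells. Barcodes under 100 UMIs had 45.3 and 88.8 CPM of Cish in the mCherry SD mice and 3.07 to 6.15 CPM in the 6 high-fat mice. The summed adipocyte markers in these barcodes were 4186 and 5904 CPM in mCherry SD and 1226 to 5190 CPM on the high-fat diet, and TertCi HFD rep140, with 5190 CPM of adipocyte markers, had 5.31 CPM of Cish. These droplets come from the same mice and the same gene as the comparison that chose it, and they are not independent of it.

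Ghr in adipocyte-like nuclei was lower on the high-fat diet by a smaller factor. The mCherry SD mice had 28194 and 22540 CPM, that is 2.54% ± 0.400 (SD, n = 2) of all adipocyte-like UMIs. The mCherry HFD mice had 12497 and 14026 CPM, the Tert HFD mice 16947 and 14258 CPM and the TertCi HFD mice 18519 and 13627 CPM. Both standard-diet mice lay above all 6 high-fat mice, and the TertCi HFD range overlapped those of both other high-fat groups. The mCherry HFD values lay below the Tert HFD values without overlap. The fitted diet difference was −1.26 (SE 0.264), and −0.93 when libraries were scaled by plain totals. Total UMIs of the gene do not separate its transcript forms.

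Jak2 was also lower, at 64.3 and 72.6 CPM in mCherry SD against 48.8 and 31.2 CPM in mCherry HFD, with a fitted difference of −0.90 (SE 0.260). All 6 high-fat mice (31.2 to 55.2 CPM) lay below both standard-diet mice. This difference was −0.43 when clusters of mixed markers were joined to the class, and −1.58 without mCherry HFD rep128. The 26 nuclei of mCherry HFD rep129 gave it the lowest Jak2 value, and its Stat5a value of 118 CPM was the highest of the 8 mice.

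The other members overlapped between the diets in adipocyte-like nuclei. Stat5b was 157 and 187 CPM in mCherry SD and 126 and 181 CPM in mCherry HFD, with a fitted difference of −0.55 (SE 0.215; −0.24 with plain totals). Stat5a was 55.1 and 95.7 CPM against 87.6 and 118 CPM, with a difference of 0.07 (SE 0.309). Prlr was 58.9 and 110 CPM against 71.8 and 143 CPM, and its fitted difference of −0.14 (SE 0.380) was 0.16 with plain totals. Of the 123 Prlr UMIs of mCherry HFD, 55 came from 6 nuclei of cluster 10. Socs2 was 8.18 and 4.52 CPM against 0 and 12.5 CPM, the last from 2 UMIs. Socs3 held 14 UMIs in all adipocyte-like nuclei and did not pass the filter on low counts, which 7 of the 8 genes passed. Over all 12578 genes tested in this class, 13.8% passed an adjusted p under 0.05 for diet (5.1% lower and 8.75% higher), a background given here without reading the members against it.

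**Figure D3:**
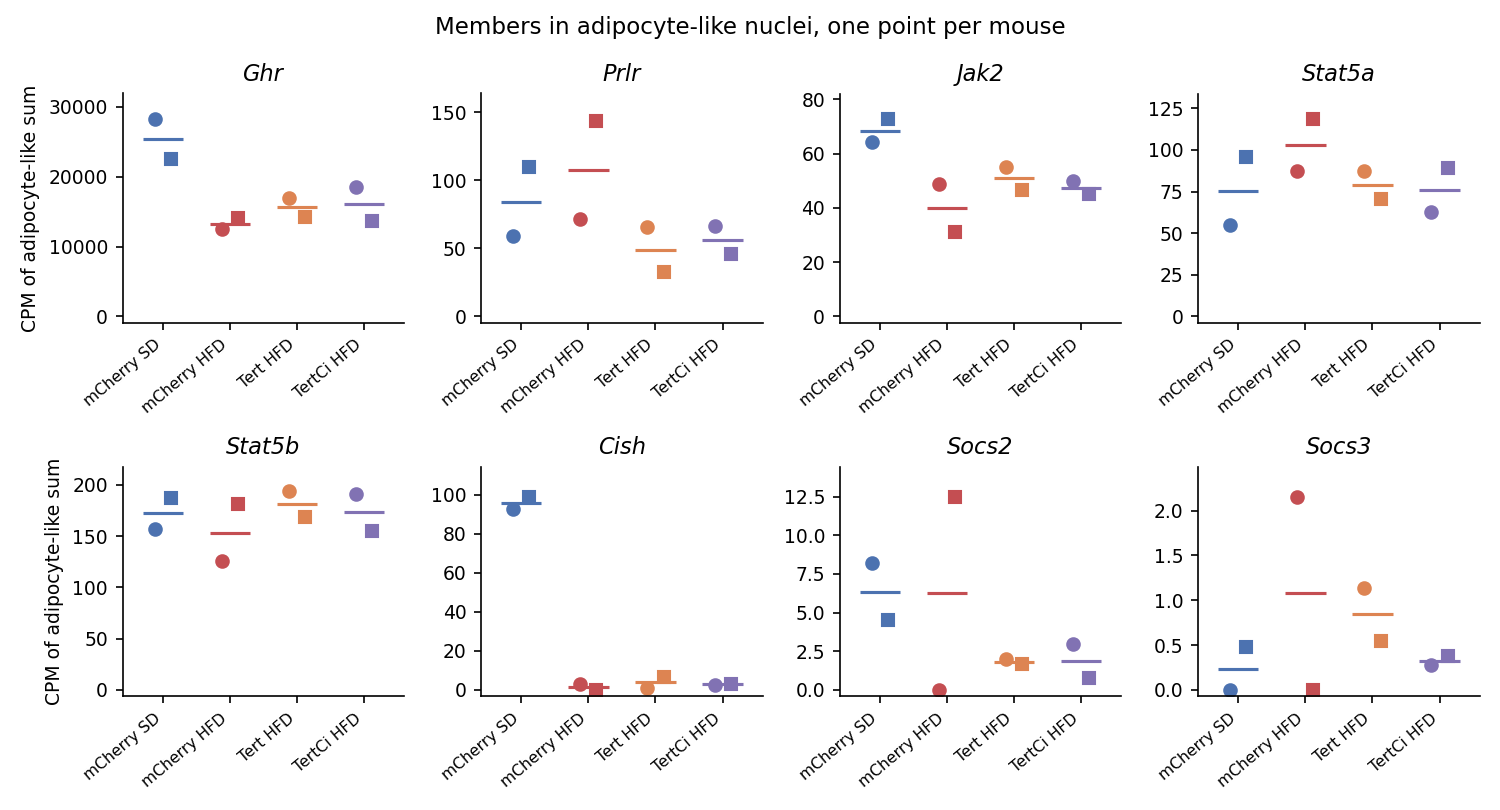
CPM of each gene in adipocyte-like nuclei, 1 point per mouse (circle for the lower and square for the higher label number in a group) and a line at the group mean, each panel with its own linear axis from 0. The mCherry SD points of Cish (92.7 and 98.8 CPM) and Ghr (22540 and 28194 CPM) stand above all high-fat points, while Prlr, Stat5a and Stat5b overlap.

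The high-fat groups with Tert or TertCi were compared with mCherry HFD to ask whether these alleles altered the same chain. Sums per mouse and class were fitted over the 4 groups with edgeR's quasi-likelihood test, with trimmed-mean scaling (TMM) and Benjamini-Hochberg adjustment over all genes of the class. Differences are therefore relative to the bulk of genes: with plain totals in place of TMM, an alternative added after the data were seen, the median difference over all genes of a class was 0.15 to 0.28 for diet and −0.38 to −0.05 for the alleles. With TMM it lay between −0.05 and 0.09 in these comparisons. Both allele comparisons use the same 2 mCherry HFD libraries. Their adipocyte-like results also rest on the 126 nuclei of that group.

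No member passed the test in adipocyte-like nuclei for either allele. For Tert, 0 of the 6 members tested passed, 1 of 6 had an unadjusted p under 0.05, and 0.318% of all genes passed. For TertCi, 0 of 6 passed, 2 of 6 had an unadjusted p under 0.05, and 6.04% of all genes passed. Socs2, 1 of these 6 members, passed the low-count filter only through the mCherry SD mice. The Ghr difference was 0.52 for Tert (SE 0.261, edgeR adjusted p = 0.312) and 0.69 for TertCi (SE 0.262, adjusted p = 0.133). The Stat5b difference was 0.60 for Tert (adjusted p = 0.184) and 0.67 for TertCi (adjusted p = 0.0866). Without the filter on low counts, Ghr (adjusted p = 0.00123) and Stat5b (adjusted p = 0.0379) passed for TertCi. Cish differed by 0.59 (SE 1.05) for Tert and 0.48 (SE 0.997) for TertCi, given without a test because its low level in mCherry HFD chose it. DESeq2 also called none of these members for either allele. Over all genes it called 92 higher and 223 lower for Tert, and 251 higher and 419 lower for TertCi.

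Tert HFD and TertCi HFD were not told apart in any class tested. Of 6 members in adipocyte-like nuclei, Cish left aside, 7 in progenitor-like, 8 in macrophage-like and 6 in endothelial-like nuclei, 0 passed by edgeR, 0 had an unadjusted p under 0.05 and 0 passed by DESeq2; 0% of all genes passed by edgeR in each class. These counts hold Socs2 in adipocyte-like, Socs3 in progenitor-like, Cish and Socs3 in macrophage-like and Prlr in endothelial-like nuclei. Each of them passed the low-count filter only through mCherry mice and had few UMIs in Tert HFD and TertCi HFD. Their results here are therefore not read. The Tert minus TertCi difference in adipocyte-like nuclei was −0.17 for Ghr (95% limits −0.89 to 0.55). Cish passed the low-count filter there only through the mCherry SD mice and held only 16 UMIs over both Tert HFD mice and 37 over both TertCi HFD mice, so its difference of 0.11 (SE 0.683) is given without a test.

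Progenitor-like nuclei, which carry the markers of the fibroblast-like cells that give rise to adipocytes, showed lower Ghr counts in mCherry HFD than in every other group. The mCherry SD mice had 1644 and 1905 CPM, the mCherry HFD mice 1050 and 1016 CPM, the Tert HFD mice 1560 and 1886 CPM and the TertCi HFD mice 1853 and 1733 CPM. The 2 mCherry HFD mice lay below the other 6 with no overlap. By edgeR, Ghr fell with diet by 0.99 on the log2 scale (SE 0.177, adjusted p = 0.00559) and was higher than mCherry HFD by 0.91 in Tert HFD (SE 0.176, adjusted p = 0.00813) and by 1.00 in TertCi HFD (SE 0.176, adjusted p = 0.00277). The Tert call was lost without mCherry HFD rep128 (adjusted p = 0.0773) or without rep129 (adjusted p = 0.0641). In mCherry HFD, clusters 13 and 8 held 56.7% and 35.8% of these nuclei, while cluster 0 held 70.5% to 77.0% in the other groups.

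The direction of this diet difference depended on how free RNA was treated. In barcodes under 100 UMIs, the mCherry SD mice had 11244 and 9622 CPM of Ghr and the mCherry HFD mice 762 and 986 CPM. The Tert HFD mice had 4045 and 6282 CPM there, and the TertCi HFD mice 7944 and 6230 CPM. The progenitor-like level was 0.146 and 0.198 of that level in mCherry SD and 1.38 and 1.03 of it in mCherry HFD. The 10 adipocyte markers, none of them at 0 in progenitor-like nuclei, had a median ratio of 0.0660 to 0.160 in the 8 mice and summed to 249 to 882 CPM. When each mouse's low-barcode level times this marker ratio was taken off, a step added after the data were seen and without a test, 624 and 367 CPM of Ghr were left in mCherry SD and 941 and 861 CPM in mCherry HFD. The diet difference of the group means was then 0.86 on the log2 scale, opposite in sign to the fitted one. The allele differences were then 0.34 for Tert and 0.34 for TertCi, in place of 0.91 and 1.00. The step assumes that the marker ratio gives the part of free RNA, which was not tested.

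**Figure D4:**
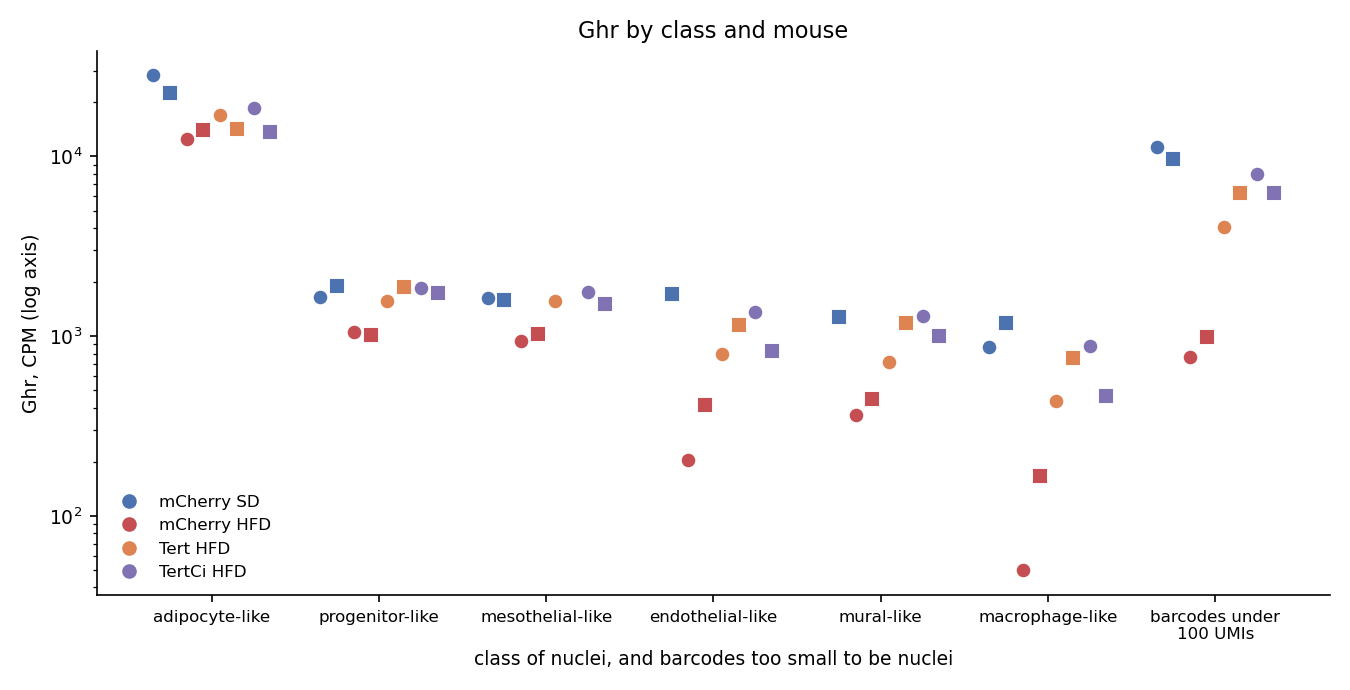
Ghr CPM on a log axis in 6 classes of nuclei and in barcodes under 100 UMIs, 1 point per mouse (circle for the lower and square for the higher label number in a group), coloured by group. In barcodes under 100 UMIs the mCherry HFD mice (762 and 986 CPM) lie below the other 6 (4045 to 11244 CPM), and they are also lowest in the progenitor-like, mesothelial-like, endothelial-like, mural-like and macrophage-like classes.

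Among the other members in progenitor-like nuclei, Socs3 was lower in TertCi HFD than in mCherry HFD. It passed the low-count filter only through the mCherry HFD mice, where it was high. It is therefore described without a test and left out of the counts given here for diet, Tert and TertCi. Of 6 members tested, Cish being too sparse, 1 passed for diet (Ghr, lower), when 11% of all genes passed and 3.65% were lower. For Tert 1 passed (Ghr, higher), when 9.94% of all genes passed and 2.53% were higher. For TertCi 1 passed (Ghr, higher), when 18.5% of all genes passed, 6% higher and 12.5% lower. Socs3, an inhibitor induced by several cytokines, had 89 and 16 UMIs in mCherry HFD (10.1 and 9.79 CPM) against 9 and 1 UMIs in TertCi HFD (1.81 and 0.599 CPM). Its fitted difference was −2.56 for TertCi (SE 0.535). In Tert HFD it had 4.32 and 1.73 CPM, with a difference of −1.34.

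Socs2 in progenitor-like nuclei was 89.0 and 72.8 CPM in mCherry HFD, 56.5 and 25.9 CPM in Tert HFD and 42.1 and 45.6 CPM in TertCi HFD. The differences of −0.75 for Tert (edgeR adjusted p = 0.143) and −0.71 for TertCi (adjusted p = 0.128) did not pass, although the mCherry HFD mice lay above the 4 others. At a threshold of 1000 UMIs in every library, Socs2 did pass for Tert (−1.04, adjusted p = 0.0319) and TertCi (−0.91, adjusted p = 0.0277), and for Tert also without Tert HFD rep134 (−1.39, adjusted p = 0.0310). Prlr was 22.9 and 27.2 CPM in mCherry SD against 8.86 and 14.1 CPM in mCherry HFD, a difference of −1.45 that did not pass (adjusted p = 0.0680) and did pass without the low-count filter (adjusted p = 0.00525). Jak2, Stat5a and Stat5b had differences between −0.14 and 0.35 over the 3 comparisons, and none passed; with plain totals the sign turned for Stat5a in all 3 and for Stat5b in the diet comparison.

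Macrophage-like nuclei had lower counts of Ghr, Cish and Stat5b in mCherry HFD than in mCherry SD. The mCherry SD mice had 868 and 1186 CPM of Ghr and the mCherry HFD mice only 49.9 and 166 CPM. Levels between 438 and 880 CPM were found in the 4 Tert and TertCi mice, so mCherry HFD did not overlap any other group. Ghr fell with diet by 3.50 (SE 0.505, edgeR adjusted p = 0.000593) and was higher by 2.71 for Tert (SE 0.486, adjusted p = 0.00347) and 2.88 for TertCi (SE 0.488, adjusted p = 0.00169), calls that held with each mouse left out in turn. The macrophage-like Ghr level was 0.0655 to 0.168 of the low-barcode level, and the adipocyte markers in these nuclei stood at a median ratio of 0.101 to 0.189. Taking off the low-barcode level at the marker ratio left less than 0 in 7 of 8 mice and 32.0 CPM in TertCi HFD rep138. The Ghr counts of this class were thus no higher than the adipocyte-marker level of free RNA in 7 of 8 mice.

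Cish in macrophage-like nuclei was 7.92 and 13.4 CPM in mCherry SD (3 and 11 UMIs) against 0.396 and 1.08 CPM in mCherry HFD (11 and 5 UMIs). It passed the low-count filter only through the mCherry SD mice, where it was high, so its fitted diet difference of −4.47 (SE 0.773) is given without a test. Its ratio to the low-barcode Cish level, which is itself 45.3 and 88.8 CPM in mCherry SD and 3.07 and 5.997 CPM in mCherry HFD, was 0.129 to 0.457 over the 8 mice. The part of free RNA in this result was not tested, and the gene and mice are those of the comparison that chose it. In Tert HFD and TertCi HFD, Cish was 1.36 to 2.43 CPM.

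Stat5b in macrophage-like nuclei was 251 and 280 CPM in mCherry SD, 210 and 239 CPM in mCherry HFD and 247 to 278 CPM in the Tert and TertCi mice. It fell with diet by 0.46 (SE 0.146, edgeR adjusted p = 0.0423) and was higher by 0.45 in TertCi HFD (SE 0.137, adjusted p = 0.0308). The diet call was lost without any 1 of 6 of the mice (adjusted p up to 0.311), and the TertCi call without any 1 of the 4 mice compared (up to 0.346). Both calls were lost with DESeq2 (adjusted p = 0.107 and 0.0888), with plain totals (0.268 and 0.233), without the low-count filter (0.436 and 0.178) and at resolution 2 of the clustering (0.0954 and 0.0537), and the diet call also without doublet removal (0.0631). Cish left aside, 2 of 7 members passed for diet, both lower, when 21.9% of all genes passed and 11% were lower. For Tert 1 of 7 passed (18.9% of all genes, 8.38% higher), and for TertCi 2 of 7, both higher (25.5% of all genes, 11.5% higher). The class was again filled unequally: cluster 3 held 77.3% of these nuclei in mCherry SD, 49.6% in Tert HFD and 56.2% in TertCi HFD, while clusters 1, 6 and 12 held 46.4%, 32.3% and 19.1% in mCherry HFD.

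**Figure D5:**
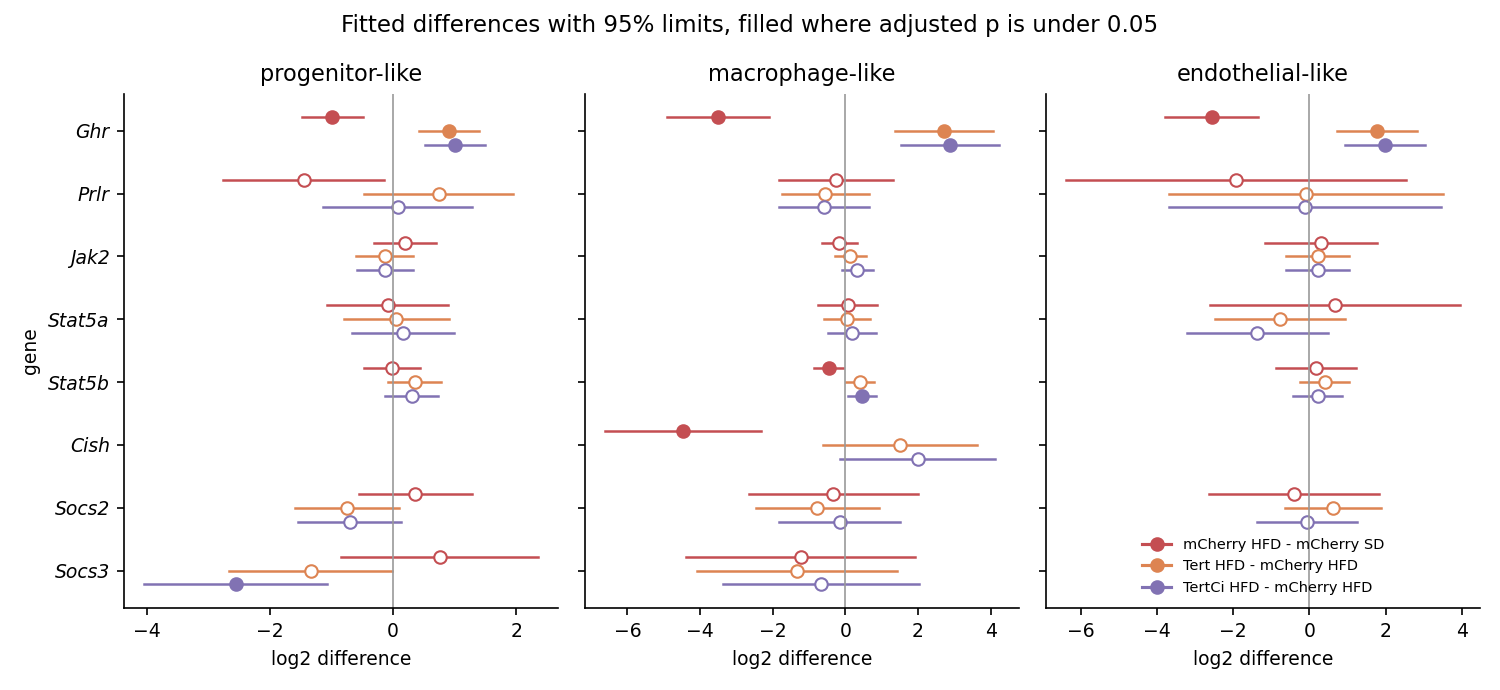
Fitted log2 differences with 95% limits for the members in progenitor-like, macrophage-like and endothelial-like nuclei (horizontal axis, a different range in each panel), filled where the edgeR adjusted p was under 0.05; genes that failed the low-count filter have no point. Cish in macrophage-like, Socs3 in progenitor-like and Prlr in endothelial-like nuclei passed that filter only through 1 group. Socs3 in macrophage-like nuclei passed it only through mCherry SD and mCherry HFD together. The points of these genes in these classes are descriptive, also where filled. Ghr passes in every comparison shown that has 2 mice per group. The endothelial-like diet comparison has 1 standard-diet library. Fitted Ghr is lower for diet (−0.99 to −3.50) and higher for the alleles (0.91 to 2.88). With the low-barcode part taken off, without a test, its progenitor-like diet difference was 0.86. Its macrophage-like mean was then negative in every group. In endothelial-like nuclei, mCherry SD (1 mouse) and the Tert HFD mean then lay below the mCherry HFD mean.

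In endothelial-like nuclei Ghr was the only member called. Prlr is among the 6 members counted below, although it passed the low-count filter only through mCherry SD, with 4 UMIs. The standard-diet side of this class is 1 library, so the diet test assumes that it varies like the libraries of the other groups. Ghr was 1714 CPM in mCherry SD rep146, the only standard-diet mouse with at least 20 such nuclei, 204 and 413 CPM in mCherry HFD and 801 to 1360 CPM in the 4 mice with Tert or TertCi. By edgeR, 1 of 6 members passed for diet (Ghr, −2.57, SE 0.386, adjusted p = 0.00139), when 3.43% of all genes passed and 1.53% were lower. For Tert 1 of 6 passed (Ghr, 1.77, SE 0.329, edgeR adjusted p = 0.0038), when 8.97% of all genes passed and 3.21% were higher. For TertCi 1 of 6 passed (Ghr, 1.98, SE 0.327, edgeR adjusted p = 0.000811), when 15.9% of all genes passed and 6.53% were higher. The allele calls were lost without mCherry HFD rep128, where the differences were 1.29 for Tert and 1.49 for TertCi. The Tert call was also lost with DESeq2 (a difference of 1.73) and at resolution 2 of the clustering (0.90). The Ghr level was 0.133 to 0.419 of the low-barcode level, at adipocyte-marker ratios of 0.0885 to 0.217. After the low-barcode step, −24.9 CPM were left in mCherry SD rep146, 38.3 and 299 CPM in mCherry HFD, 108 and −60.9 CPM for Tert HFD and 406 and 280.0 CPM for TertCi HFD. The order against mCherry HFD thus turned for mCherry SD and for the Tert HFD mean (23.7 against 168 CPM), and stayed for the TertCi HFD mean (343 CPM). Macrophage markers also summed to 2436 to 4784 CPM in this class, and the part of admixed RNA was not tested.

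Mesothelial-like nuclei stood out for Prlr, and they also held small counts of Cish. Prlr was 507 and 508 CPM in mCherry SD, 626 and 432 CPM in mCherry HFD, 707 CPM in the 1 Tert HFD mouse with enough nuclei and 314 and 637 CPM in TertCi HFD, so the groups overlapped. These values were 3.81 to 35.2 times the low-barcode Prlr level. With nuclei thinned to 1000 UMIs, 26.0% to 40.9% of them carried a Prlr UMI, against 2.95% to 11.5% of adipocyte-like nuclei. Cish was 26.0 and 33.6 CPM in mCherry SD (4 and 8 UMIs), 11.9 and 16.7 CPM in mCherry HFD (10 and 7 UMIs), 11.6 CPM in Tert HFD and 10.8 and 0 CPM in TertCi HFD. On the high-fat diet, 4 of these 5 mice had a higher Cish CPM than their own adipocyte-like nuclei. That was not particular to this class, since adipocyte-like Cish exceeded endothelial-like Cish in only 1 of 7 mice. Endothelial-like Cish averaged 1.82 CPM in mCherry HFD, 13.7 CPM in Tert HFD and 9.73 CPM in TertCi HFD. The mesothelial-like mCherry SD values lay below the low-barcode Cish level of 45.3 and 88.8 CPM, which was 3.07 to 6.15 CPM on the high-fat diet. No test was made in this class.

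Ghr in mesothelial-like nuclei had the pattern of the progenitor-like nuclei. The mCherry HFD mice had 942 and 1027 CPM, below the mCherry SD mice at 1632 and 1590 CPM. The Tert HFD mouse had 1576 CPM, and the TertCi HFD mice had 1768 and 1514 CPM. After the low-barcode level was taken off at the marker ratio, 347 and 169.9 CPM were left for mCherry SD against 835 and 799 CPM for mCherry HFD. The mice with Tert or TertCi kept 1025 to 1139 CPM. In this class too, the order of mCherry SD and mCherry HFD turned with that step. Mural-like nuclei, which carry pericyte and smooth muscle markers, had 362 and 446 CPM of Ghr in mCherry HFD and 719 to 1299 CPM in the other 5 mice. After the step, 177 and 255 CPM were left in mCherry HFD, a mean of 216 CPM, against −151 CPM in mCherry SD rep146 and means of −68.6 CPM in Tert HFD and 27.6 CPM in TertCi HFD. The order of mCherry HFD against each other group thus turned, though the Tert HFD and TertCi HFD mice ran from −378 to 347 CPM.

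The epithelial-like nuclei of mCherry SD rep146 had 83.9 CPM of Cish (26 UMIs) beside 1009 CPM of Prlr, and those of mCherry HFD rep128 had 5.91 CPM of Cish (13 UMIs) beside 57.7 CPM of Prlr. Different clusters held these nuclei and only 1 mouse stood on each side, so the diets cannot be told apart from the mice. Leading genes of the epithelial-like clusters included Adam7, Spag11b, Crisp1 and Akr1b7, and whether these nuclei belong to the fat itself was not tested.

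The other genes of the pathway were 67 in 7 lists. In adipocyte-like nuclei, 49 were tested, 0 passed for Tert and 1 for TertCi (2.04% of those tested, against 6.04% of all genes). That gene was Lifr, a receptor of the gp130 family, at 95.1 ± 19.8 CPM (SD, n = 2) in mCherry HFD and 174 ± 44.8 CPM in TertCi HFD, a difference of 1.18 (edgeR adjusted p = 0.0262). The median difference of the 49 was 0.11 for Tert and 0.12 for TertCi, against 0.04 and 0.02 over all genes.

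In progenitor-like nuclei, 48 list genes were tested. For diet 4 rose and 2 fell (12.5% of those tested), for Tert 3 rose and 2 fell (10.4%), and for TertCi 5 rose and 6 fell (22.9%), against 11%, 9.94% and 18.5% of all genes. Irs1, an adaptor of insulin and growth hormone signalling, fell with diet by 1.03 (edgeR adjusted p = 0.00702) and was higher by 0.84 for Tert (adjusted p = 0.0155) and 0.94 for TertCi (adjusted p = 0.00488). Ptpn1, a phosphatase that acts on JAK2, rose with diet by 0.86 (adjusted p = 0.0234) and was lower by 0.67 for TertCi (adjusted p = 0.0239). Of 8 genes known to respond to growth hormone or STAT5, 1 passed for diet and 2 for TertCi. Igf1, a growth hormone target, fell by 0.72 for TertCi (edgeR adjusted p = 0.0269), while Aox1, an aldehyde oxidase gene, was higher by 0.67 (adjusted p = 0.0156) and fell with diet by 0.87 (adjusted p = 0.00987). The adipocyte markers summed to 249 to 882 CPM in these nuclei with none at 0, and the part of free RNA in Irs1 and Aox1 was not tested. Of 11 receptors that use JAK2 or STAT5, 4 were tested. Csf2ra, a receptor chain of myeloid cells, rose by 2.03 with diet (edgeR adjusted p = 0.0334). It was lower by 1.74 for Tert (adjusted p = 0.0230) and 1.56 for TertCi (adjusted p = 0.0205). The related chain Csf2rb2 and Il7r, the interleukin-7 receptor, passed the low-count filter only through the mCherry HFD mice, and Lif, a ligand, only through mCherry SD, so their calls, which the counts above hold, are not read. Csf2rb2 held 0 and 1 UMIs in mCherry SD against 101 and 33 UMIs in mCherry HFD. Macrophage markers in the same nuclei summed to 116 and 124 CPM in mCherry SD, 314 and 412 CPM in mCherry HFD and 196 to 307 CPM in the Tert and TertCi mice, with at most 2 markers at 0 in a mouse, and their part in these 3 receptors was not tested.

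In macrophage-like nuclei, 53 list genes were tested. For diet 5 rose and 10 fell (28.3%), for Tert 8 rose and 3 fell (20.8%), and for TertCi 9 rose and 6 fell (28.3%), against 21.9%, 18.9% and 25.5% of all genes. Of 7 receptors that use JAK2 or STAT5, 3 passed for diet, all higher, 2 for Tert and 4 for TertCi, all lower, with median differences of 0.96, −0.42 and −1.12 against 0.06, −0.01 and −0.04 over all genes. Il7r, Csf2rb2 and Csf2ra rose with diet by 4.24, 2.62 and 1.60. Il7r was lower by 1.30 for Tert and by 1.55 for TertCi, and Csf2ra by 1.06 and 1.21. The kinase Jak1 fell with diet by 0.95 (edgeR adjusted p = 0.000942) and was higher by 0.74 for Tert and 0.84 for TertCi. The inhibitor Socs6 fell with diet by 1.23 and was higher by 1.04 and 1.37. Of 8 genes known to respond to growth hormone or STAT5, 3 passed for diet: Angptl4 and Bcl6 rose by 2.11 (adjusted p = 0.0320) and 0.95 (adjusted p = 0.0261), and Aox1 fell. For the alleles, Aox1 was higher by 1.88 for Tert and 2.48 for TertCi, Bcl2l1 was lower by 0.82 and 0.64, and Pim1 was lower by 1.12 for TertCi. Irs1, Lifr and Aox1 fell with diet by 3.31, 1.88 and 2.27, and Lep, an adipocyte hormone, was called higher by 1.58 for Tert; the adipocyte markers summed to 546 to 861 CPM in this class with none at 0, and their part in these genes was not tested.

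In endothelial-like nuclei, of 41 list genes, 1 rose and 1 fell for diet, 1 rose and 2 fell for Tert, and 1 rose and 3 fell for TertCi. These were 4.88%, 7.32% and 9.76% of the genes tested, against 3.43%, 8.97% and 15.9% of all genes. Lifr was the gene that fell for diet (−1.43) and rose for both alleles (1.08 and 1.60). All the other calls were receptors that use JAK2 or STAT5, of which 4 were tested: Il7r was called lower for both alleles, Csf2ra lower for both alleles and Csf2rb2, which passed the low-count filter only through mCherry HFD, lower for TertCi. Il7r was also called higher for diet, against 1 mCherry SD library with 0 UMIs, and the Lifr diet difference rests on the same single library. Macrophage markers summed to 2436 to 4784 CPM in this class, and their part in these receptors was not tested. Both allele comparisons and the diet comparison share the mCherry HFD libraries.

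The genes most like Ghr across 50 sums of 1 class in 1 mouse, by Pearson correlation of log2(CPM + 1) among 9693 genes with a mean of at least 10 CPM, were Sgcd (r = 0.950), Aox1 (0.923), Prr16 (0.918), A530053G22Rik (0.911) and Tshr (0.896). The sums share mice, depth and free RNA, so r is descriptive. Sgcd, a sarcoglycan gene, had 3897 ± 8.28 CPM (SD, n = 2) in adipocyte-like nuclei of mCherry SD and 2563 ± 158 CPM in those of mCherry HFD. The Tert HFD mean was 3683 ± 476 CPM, and the TertCi HFD mean was 4625 ± 253 CPM. Tshr, the thyrotropin receptor, was at 1315 ± 152 CPM in mCherry SD and 1790 ± 44.0 in mCherry HFD, so it did not share the lower adipocyte-like level of Ghr in mCherry HFD.

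The genes most like Cish were less close: 1600020E01Rik (r = 0.639), Gfod2 (0.630), Gphn (0.612), Slc2a3 (0.599) and Fhit (0.585). The sums that gave r include the adipocyte-like Cish values that chose the set. A higher adipocyte-like level of these genes in mCherry SD is therefore partly built in and is no separate result. Gfod2 was 116 ± 4.31 CPM (SD, n = 2) in adipocyte-like nuclei of mCherry SD and 42.6 ± 1.43, 52.0 ± 11.2 and 39.2 ± 4.23 in mCherry HFD, Tert HFD and TertCi HFD. Slc2a3, a glucose transporter gene, was 179 ± 40.3 CPM on the standard diet and 2.87 ± 4.06 CPM in mCherry HFD. The latter mean is below its SD and comes from the 126 adipocyte-like nuclei of that group. Tert HFD averaged 64.1 ± 15.01 CPM and TertCi HFD 94.1 ± 52.2 CPM. On the high-fat diet its mean was thus higher in the Tert and TertCi mice than in mCherry HFD, whereas Cish was at or below 6.60 CPM in every high-fat mouse. This contrast between the 2 genes was not tested.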

How the data were processed

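Nuclei of visceral white adipose tissue from 8 mice were counted with a 10x Genomics 3′ chemistry, 1 library per mouse. The authors deposited UMI counts, 1 whole number for each gene in each barcode, made with Cell Ranger 7.1.0 per the file headers. The submitters' processing notes name Cell Ranger 5.0.1, bcl2fastq 2.20.0 and mm39 instead. The annotation, the counting of introns and the batch of each mouse are not given in the sources used here.

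A barcode was kept as a nucleus with at least 500 UMIs or 0.1 of the 99th percentile of its library's 5000 largest barcodes, whichever was larger (987 to 4705 UMIs), at least 300 genes and at most 5% mitochondrial counts. Pairs of nuclei were simulated, and the barcodes most like them were removed at 0.8% per 1000 nuclei (1.59 to 6.35% per library). Nuclei were clustered with 2000 variable genes, 30 components, 15 neighbours and leidenalg 0.10.2 at resolution 1. A class needed 3 markers raised at least 2-fold over the lower quartile of clusters and a score (the mean log2 ratio of its markers) no lower than 1. A cluster was called mixed when a second class reached 0.55 of the best score, or when a second class was raised and its nuclei were 1.25 times as deep as the median of their library, a rule set after marker scores had been seen.

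Counts were summed per mouse and class with at least 20 nuclei and tested with edgeR 4.0.16 in R 4.3.3 (TMM, filterByExpr, 1 fit of 4 groups). DESeq2 1.42.0 was an alternative. The fits were tested on simulated data first. Python 3.11.15, numpy 2.4.6 and scipy 1.17.1 did the rest. Poisson intervals and floors of 3 counts cover counting error only. The edgeR p-values test a difference against a spread between mice that is estimated over the 4 groups with information from all genes. No group has more than 2 mice.

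The 8 members and all gene lists were chosen with earlier results of these data known. The genes named are the 8 members, list genes past the threshold (at most 4 per list and comparison, by size of change) and the 5 genes most like Ghr and Cish; a subset of the list genes is named. Promoter sequences are from RefSeq (GRCm38.p6) and Socs2 had no entry. Dendritic-like, epithelial-like, mural-like and mesothelial-like nuclei were described without tests, the first 2 for want of mice.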

Additional observations from a re-analysis of the deposited data

Results flagged for a closer look

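Several members had fitted differences of opposite sign in 2 classes. They were picked because the CPM of the compared groups did not overlap in either class. The share of all genes that do the same was not counted, so this is not read as a result about the members. The difference between classes was not tested in any of them, and none of the values passed its own test or was tested. For diet, Jak2 differed by 0.19 in progenitor-like nuclei and by −0.90 in adipocyte-like nuclei. For Tert, Prlr differed by 0.74 in progenitor-like and by −0.68 in adipocyte-like nuclei, and Socs2 by 0.61 in endothelial-like and by −0.75 in progenitor-like nuclei. The adipocyte-like Prlr count of mCherry HFD was 123 UMIs, of which 55 came from 6 nuclei of cluster 10. In cluster 2, which held 114 nuclei of mCherry HFD, Prlr was 46.4 CPM in that group and 58.8 CPM in Tert HFD, the opposite order. For TertCi, Jak2 differed by 0.33 in macrophage-like and by 0.21 in endothelial-like nuclei, and by −0.13 in progenitor-like nuclei.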

How the results depend on the processing

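No paired analysis was possible because the mice of different groups share no replicate number. In adipocyte-like nuclei the diet difference of Jak2 was −0.43 with mixed clusters joined to their best class, and with plain totals the differences were −0.93 for Ghr, −0.62 for Jak2 and −0.24 for Stat5b. Counts of members called under other settings are given here without the share of all genes called there, so a gain or loss is not read. Members called for TertCi in adipocyte-like nuclei numbered 2 without a low-count filter and 1 with mixed clusters joined. In progenitor-like nuclei, members called for diet numbered 2 without a filter, 3 at 1000 UMIs in every library, 2 with mixed clusters joined and 2 without doublet removal; for Tert they numbered 2 at 1000 UMIs and 2 with mixed clusters joined, Socs2 and Socs3 being the members gained. In progenitor-like nuclei Prlr passed for diet without a filter, at 1000 UMIs and without doublet removal. The diet counts at 1000 UMIs and with mixed clusters joined also hold Cish, the gene that chose the set. In the main fit it failed the low-count filter there, with 7 UMIs in mCherry SD and 18 in mCherry HFD. Its calls are therefore not read, and the part of free RNA in them was not tested. Macrophage-like members called for TertCi numbered 1 without a filter, with DESeq2, at resolution 2 and with plain totals. Endothelial-like members called for Tert numbered 0 with DESeq2 and at resolution 2. Over all genes in that comparison, DESeq2 called 54 higher and 80 lower, against 249 and 447 with edgeR. The adipocyte-like level of Cish was 101.5 CPM in mCherry SD and 3.71 CPM in mCherry HFD at 1000 UMIs. With mixed clusters joined, Cish was 73.9 CPM and its thinned share 7.78% in mCherry SD, and Ghr was 17055 CPM in mCherry SD and 9445 CPM in mCherry HFD. Ghr in progenitor-like nuclei turned from −0.99 to 0.86 for diet once the low-barcode part was taken off.

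With 1 mouse left out, where a lone mouse is assumed to vary like the other groups, the adipocyte-like diet differences ran from −11.41 to −5.33 for Cish, −1.55 to −1.08 for Ghr, −1.58 to −0.78 for Jak2 and −0.75 to −0.37 for Stat5b. Members called ran from 0 to 1 for TertCi in adipocyte-like nuclei, from 1 to 2, 0 to 2 and 1 to 2 for diet, Tert and TertCi in progenitor-like nuclei, from 1 to 3, 1 to 2 and 1 to 2 in macrophage-like nuclei, and from 0 to 1 for each allele in endothelial-like nuclei. Plain totals moved the share of calls that were higher from 63.2% to 84.8% for diet, 32.5% to 12.9% for Tert and 38.8% to 7.69% for TertCi in adipocyte-like nuclei, from 66.9% to 83.6%, 25.4% to 13.7% and 32.5% to 15.2% in progenitor-like nuclei, and from 49.9% to 66.5%, 44.4% to 26.5% and 45.2% to 27.7% in macrophage-like nuclei. Adipocyte-like comparisons with mCherry HFD gave no value without doublet removal or at resolution 2, since fewer than 20 nuclei per mouse were left (12 and 7, and 10 and 10). The counts of members called include Cish in macrophage-like and Socs3 in progenitor-like nuclei, which passed the low-count filter only through the group where they were high. The share of all genes called with each mouse left out is not given beside these counts. They are therefore not read as results about the members. The cause of these changes was not tested. Depth limits what a count of 0 shows: in the 26 mCherry HFD rep129 nuclei, a floor of 3 counts stands at 18.7 CPM of Cish.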
